A study of Mus musculus with 4 samples.

Results

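General capillary cells are endothelial cells of the alveolar capillary bed, and 942 barcodes that carried their signature were found among 19427 kept barcodes of the 2 lung libraries. The whole series held 30943 barcodes in 4 libraries. Barcodes were chosen by measured counts of unique molecular identifiers (UMIs, tags that mark single captured mRNA molecules). A barcode was kept with at least 500 UMIs and at most 20% mitochondrial UMIs. It was taken as a general capillary cell if the UMIs of the endothelial genes Cdh5, Pecam1, Cldn5 and Ptprb summed to at least 2 and Gpihbp1 had at least 1 UMI. Ptprc, a gene of leukocytes, had to be at 0, the aerocyte genes Car4 and Ednrb had to sum to less than 3, and Vwf, a gene of larger vessels, could have at most 1 UMI. These 9 genes describe the choice and are not results below.

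Single-cell suspensions of lung and synovium came from female C57BL/6 mice aged 4 months. TNF+ mice (hTNFtg) carried 1 copy of the human TNF gene in a single transgenic line and develop inflammatory arthritis with pulmonary vascular disease, while TNF- mice were littermates without the transgene. Lung tissue of 3 to 5 mice per genotype was pooled before capture, so each genotype was 1 library, mice could not be told apart, and the data hold no replicates. No p-value or standard error is therefore given, and every interval is a 95% interval that covers counting error only, not variation between mice or preparations. The human transgene itself was not measured.

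The alveolar capillary bed is built of a pair of endothelial cell types. Aerocytes are large, thin cells specialised for gas exchange, while general capillary cells control vascular tone, pass fatty acids and leukocytes, and act as the progenitors that renew both types after injury. The label markers taken here were Gpihbp1, which holds lipoprotein lipase on the capillary surface, and the apelin receptor Aplnr. Plvap, which forms the diaphragms of caveolae and fenestrae, the growth factor Kitl and the fatty acid transporter Cd36 were the others. Whether each marks general capillary cells against aerocytes is shown by the values below.

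The TNF- lung held 901 general capillary cells among 8342 kept barcodes, a share of 10.8% (10.1 to 11.5). The TNF+ lung held 41 among 11085, a share of 0.370% (0.266 to 0.501). The share was therefore far lower in the TNF+ library, and so was that of the lung endothelium as a whole. Barcodes that passed the endothelial part of the rule made up 28.9% (28.0 to 29.9) of the TNF- and 2.54% (2.26 to 2.85) of the TNF+ library. Within this endothelium, general capillary cells were 37.3% (35.4 to 39.3) of 2414 TNF- barcodes and 14.5% (10.6 to 19.2) of 282 TNF+ barcodes. Aerocytes, chosen with the same endothelial rule but at least 3 UMIs of Car4 and Ednrb, numbered 533 in the TNF- and 79 in the TNF+ library. Barcodes of the same endothelial rule with less than 3 UMIs of Car4 and Ednrb and at least 2 UMIs of Vwf numbered 530 and 4. They are called large-vessel cells after this gate. The gate set no limit on Gpihbp1, so it can also take in general capillary cells with Vwf. General capillary cells thus outnumbered aerocytes in the TNF- library and not in the TNF+ library. Endothelial barcodes outside these gates were 18.6% of the TNF- and 56.0% of the TNF+ endothelium. In the TNF+ library 83 of these 158 had under 1000 UMIs. The rule needs a raw UMI of Gpihbp1, so the lower share of general capillary cells within the endothelium can depend on depth and on the level of Gpihbp1. A share of barcodes depends on how many other cells entered the suspension and survived its digestion, and whether fewer of these cells were present in the tissue was not tested. The same rule applied to the synovium gave 436 barcodes (6.57%) in the TNF- and 189 (5.40%) in the TNF+ library.

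**Figure D1:**
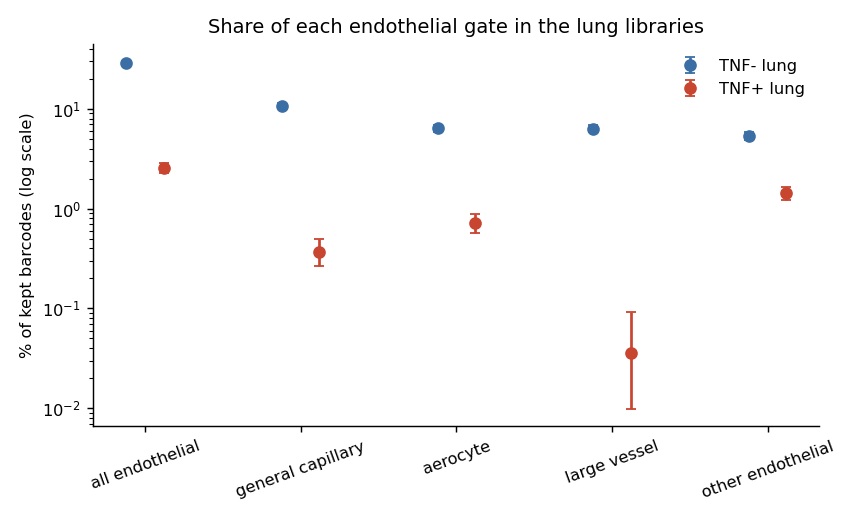
Share of kept barcodes in each endothelial gate, as percent on a log scale, in the TNF- lung (8342 kept barcodes) and the TNF+ lung (11085). Bars are exact binomial 95% intervals for counting error. General capillary cells fell from 10.8% to 0.370% and the large-vessel gate, which can hold general capillary cells with Vwf, from 530 barcodes to 4.

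Depth was examined next, since the rule rests on raw UMIs. TNF- general capillary cells ranged from 500 to 147128 UMIs with a median of 5648. TNF+ cells fell into 2 sets that did not overlap. In the first set, 11 barcodes had 560 to 720 UMIs, each carried exactly 1 UMI of Gpihbp1, and 7 of them met the endothelial sum at its minimum of 2. In the second set, 30 cells had 3535 to 35221 UMIs. The whole TNF+ set had a median of 12558 UMIs, so the shallow barcodes were 11 of 41, and the deeper 30 had a median of 16702.5 UMIs, above that of the TNF- cells.

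The endothelial content of the barcodes was measured with 21 pan-endothelial genes that the rule did not use. T cells, set beside them, were barcodes with at least 3 UMIs of Cd3e, Cd3d and Cd3g, a UMI of Ptprc and none of Cdh5, Pecam1, Cldn5 or Ptprb. They took a median of 1.80% of a barcode's UMIs in TNF- general capillary cells, against 0.0260% in T cells of the same library. In the TNF+ library they took 0.928% in the 30 deeper cells and 0.650% in the 11 shallow barcodes, against 0.0128% in T cells. General capillary barcodes of both libraries thus carried endothelial RNA well above that of T cells, at a lower level in the TNF+ library. The contrast with T cells is partly set by the choice of both groups. TNF+ T cells had a median of 8606 UMIs, so they do not show what a shallow barcode of another cell would carry. The identity of the 11 shallow barcodes is therefore not settled by it. Marker genes of other cells moved with these values. In the 11 shallow TNF+ barcodes, median shares were 0.859% for myeloid, 1.52% for lymphocyte and 1.13% for epithelial markers, each above the pan-endothelial share. Lyz2, a lysozyme gene of myeloid cells, had UMIs in 40 of 41 TNF+ general capillary barcodes, and Igkc, an immunoglobulin gene of B cells, had them in 41 of 41. Their part in the results below was not tested.

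**Figure D2:**
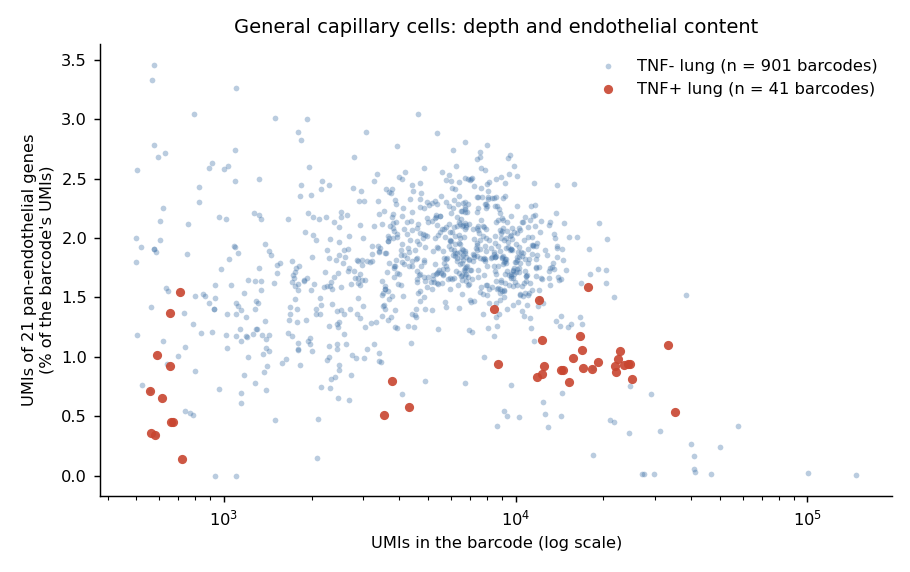
UMIs per barcode (log scale) against the percent of its UMIs from 21 pan-endothelial genes, for 901 TNF- and 41 TNF+ general capillary barcodes, 1 point each. TNF+ barcodes form a shallow set of 11 and a deeper set of 30, and the deepest TNF- barcodes, up to 147128 UMIs, have low endothelial shares.

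Some barcodes held the RNA of more than 1 cell type. A barcode was called mixed when the UMIs of any 1 list of epithelial, myeloid, lymphocyte, mesenchymal or lymphatic markers reached those of the pan-endothelial genes. This held for 39 TNF- barcodes, 23 through epithelial and 13 through lymphatic markers, and for 12 TNF+ barcodes, 10 of them in the shallow set. Just 2 TNF- barcodes carried 70.7% of the 227790 epithelial-marker UMIs of the set. Ratios without mixed barcodes (862 TNF- and 29 TNF+ cells) are given below as unmixed values for several genes whose call they changed. The 2 lung libraries shared 21 barcodes, none of which was a general capillary cell in both.

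The limits of the rule fell within a continuum. In the TNF- library, 165 barcodes had exactly 1 UMI of Gpihbp1 and a median pan-endothelial share of 1.57%, while 450 endothelial barcodes missed the rule with 0 and had 0.993%. In the TNF+ library, 18 barcodes with 1 UMI had 0.786% and 158 with 0 had 0.450%. At the aerocyte limit, 88 TNF- barcodes had 2 UMIs of Car4 and Ednrb, and 43 had 3. At the Vwf limit, 185 TNF- barcodes had 1 UMI and 111 had 2, with pan-endothelial shares of 1.86% and 1.84%.

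The label was then checked against its marker genes. Levels are in CPM, the UMIs of a gene summed over the general capillary cells of a library per 1000000 of all their UMIs. In the TNF- library Cd36 stood at 2187 CPM (2150 to 2225), Plvap at 1057 (1031 to 1083), Kitl at 383 (368 to 399) and Aplnr at 147 (137 to 157). All 4 markers were therefore expressed in TNF- general capillary cells. These are levels per UMI and do not rank the genes against each other. With each cell thinned at random to 3000 UMIs, Cd36 had a UMI in 96.9% of 648 TNF- cells, Plvap in 82.4%, Kitl in 56.8% and Aplnr in 33.5%. T cells of the same library, thinned likewise, had a UMI of Cd36 in 4.88%, of Plvap in 3.05%, of Kitl in 1.22% and of Aplnr in 0.610% of 164 cells. The T cells had a median of 8459 UMIs before thinning.

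Set against aerocytes of the same library, the label markers did not all favour general capillary cells. Log2 ratios of CPM over aerocytes were 0.85 (0.69 to 1.01) for Aplnr and 0.63 (0.57 to 0.68) for Plvap in the TNF- lung. Kitl went against its label, with 1393 CPM in aerocytes against 383 in general capillary cells, a log2 ratio of -1.86 (-1.93 to -1.79). Cd36 was close to even, with 2386 CPM in aerocytes and 2187 in general capillary cells. In the TNF+ lung the log2 ratio over aerocytes was 1.65 for Aplnr (271 and 86.0 CPM), 1.34 (1.05 to 1.62) for Plvap, -1.27 (-1.47 to -1.08) for Kitl and -2.23 (-2.56 to -1.91) for Cd36. Of the 9 other general capillary genes in the TNF- lung, 7 exceeded aerocytes. Kit, the receptor for Kitl, did so by 0.87 (0.78 to 0.95) on the log2 scale and the incretin receptor Glp1r by 0.75 (0.67 to 0.84). The semaphorin Sema3c exceeded them by 0.58 (0.54 to 0.61), while Scn7a was below them at -0.29 (-0.33 to -0.24) and Hilpda close to even at 0.08. In the TNF+ lung Hilpda at -1.45 (-2.20 to -0.78), Sema3c at -0.94 (-1.09 to -0.80) and Scn7a at -0.53 (-0.66 to -0.41) were below aerocytes. Adgrl3 at -0.23 (-0.51 to 0.04) and Tek at -0.12 (-0.41 to 0.16) were close to even, and the rest of the 9 exceeded aerocytes. The aerocyte genes Apln and Fibin, which the rule did not use, were near absent from TNF- general capillary cells, with log2 ratios of -4.86 (-5.44 to -4.34) and -6.22 (-6.80 to -5.69). Others were lower than in aerocytes but present, with Kdr at 286 CPM, Emp2 at 213, Igfbp7 at 198 and Prx at 162. Of the label markers, Aplnr and Plvap therefore set general capillary cells above aerocytes in the TNF- lung, and Kitl and Cd36 did not.

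Cd36 (ENSMUSG00000002944, GRCm38 chromosome 5, 17781690 to 17888801, minus strand) was the label marker that differed most between genotypes. It stood at 2187 CPM in TNF- and 162 CPM (130 to 201) in TNF+ general capillary cells, a log2 ratio of TNF+ over TNF- of -3.75 (-4.08 to -3.44), or 13.5-fold lower. At 3000 UMIs per cell it had a UMI in 628 of 648 TNF- cells and in 5 of 30 TNF+ cells, 16.7% (5.64 to 34.7). T cells of the TNF+ library had one in 3.26% (1.84 to 5.32) of 460. In TNF+ aerocytes Cd36 was lower than in TNF- aerocytes by a smaller ratio, -1.65 on the log2 scale, and in synovial barcodes that met the same rule the ratio was -0.14. Plvap (ENSMUSG00000034845, chromosome 8, 71497765 to 71511752, minus strand) fell from 1057 to 359 CPM (310 to 415), a log2 ratio of -1.56 (-1.77 to -1.35), and 1 cell held 23.1% of its 186 TNF+ UMIs. The pattern of these 2 genes was not shared by the other 2 label markers. In TNF+ cells Kitl was at 481 CPM (423 to 545), a log2 ratio of 0.33 (0.13 to 0.52), and Aplnr at 271 CPM (228 to 319), a log2 ratio of 0.88 (0.62 to 1.14).

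The label markers were also compared at the lowest common depth. With both libraries thinned to 500 UMIs per cell, which kept every general capillary cell, Cd36 had a UMI in 65.0% (61.8 to 68.2) of 901 TNF- cells but 9.76% (2.72 to 23.1) of 41 TNF+ cells. Plvap had one in 40.5% (37.3 to 43.8) and 9.76% (2.72 to 23.1). For Kitl the shares were 19.2% (16.7 to 21.9) and 9.76% (2.72 to 23.1), and for Aplnr 8.32% (75 cells) and 14.6% (6 cells, 5.57 to 29.2). The intervals of the genotypes thus lay apart for Cd36 and Plvap and overlapped for Kitl and Aplnr. A second random thinning gave 63.8% and 4.88% for Cd36 and 41.4% and 9.76% for Plvap. For Aplnr it turned the direction, with 7.99% of TNF- and 4.88% (2 cells) of TNF+ cells, and for Kitl it gave 19.0% and 17.1%, so no direction is read for these markers at this depth. T cells thinned to 500 UMIs had a UMI of each of these genes in at most 1 of 164 TNF- and 1 of 465 TNF+ cells, and in the second thinning Cd36 had one in 2 and 4 of them. Before thinning, Cd36 had a UMI in 95.2% of TNF- and 41.5% of TNF+ cells, and Plvap in 85.3% and 56.1%.

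**Figure D3:**
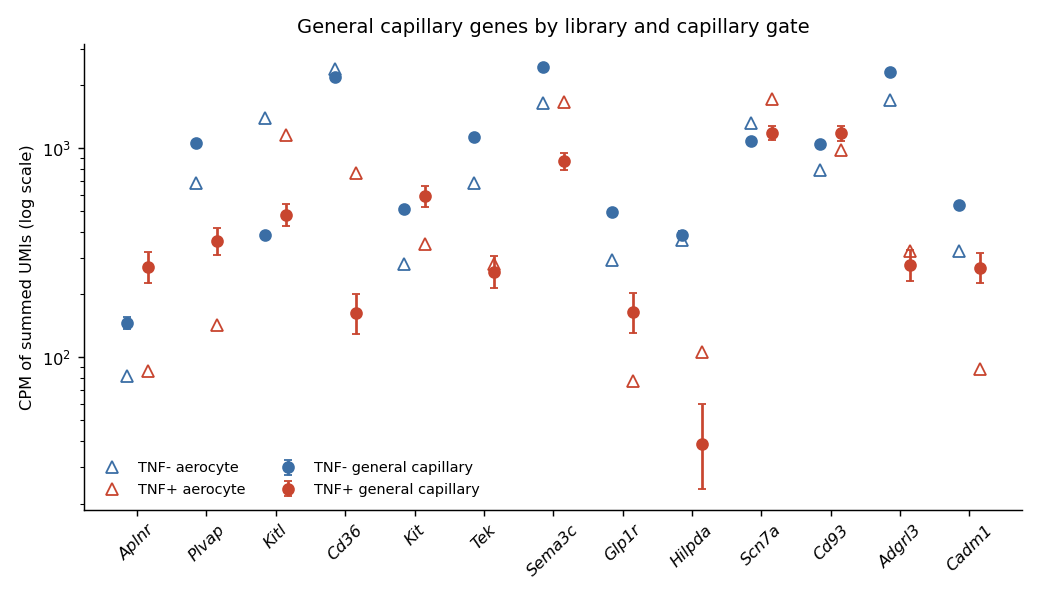
CPM of summed UMIs (log scale) for 4 label markers and 9 other general capillary genes in general capillary cells (filled circles, bars are 95% counting intervals) and aerocytes (open triangles) of the TNF- and TNF+ lung. Cd36 falls from 2187 to 162 CPM in general capillary cells, and Kitl is higher in aerocytes than in general capillary cells of both libraries.

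For a view of all genes, 7355 genes had at least 10 expected UMIs in the smaller library. Of these, 619 (8.42%) were past 2-fold higher and 527 (7.17%) past 2-fold lower in TNF+ general capillary cells, with a median log2 ratio of 0.11. With ratios centred on this median, 506 were higher and 627 lower. The percentages are the background for the gene groups below. In aerocytes 7.88% of 10340 measured genes were higher and 7.37% lower. In synovial barcodes that met the same rule, 6.82% of 10082 were higher and 10.3% lower. The words higher and lower are used for genes past 2-fold in these 2 libraries. The TNF+ sums rest on 517517 UMIs of 41 cells and the TNF- sums on 6077458 UMIs of 901 cells, so a single TNF+ cell can set a value. The share of TNF+ UMIs from 1 cell is given where it was high. Ratios also moved when the rule was applied to counts thinned to 500 UMIs, which chose 612 TNF- and 20 TNF+ barcodes. The gene limits were then judged on 500 UMIs, so barcodes that failed the full rule by Ptprc, Car4, Ednrb or Vwf could enter. Shifts under this setting therefore mix depth with a changed set of cells. Over all genes 481 were then higher and 496 lower. Of 73 named genes past 2-fold that then still had a value, 19 were no longer past 2-fold, among them Sema3c (-0.79), Eng (-0.83), Hey1 (-0.60), Stmn2, Plat (0.75), Prx (-0.94), Atp13a3 (0.41) and Nfkbia (0.42). Cd36 was then at -2.36, Calcrl at -1.13, Hpgd at -1.32 and Igfbp7 at 3.04, smaller in size but past 2-fold.

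Of the 9 other general capillary genes none was higher and 5 were lower in the TNF+ library, with a median log2 ratio of -1.51. In aerocytes none of the 9 was higher and 5 were lower as well, with a median of -1.29. The lower values of this list were thus shared by both capillary types. Adgrl3, an adhesion receptor, went from 2321 (2282 to 2359) to 276 CPM (233 to 326), a log2 ratio of -3.07 (-3.32 to -2.83). Hilpda, an inhibitor of triglyceride breakdown that hypoxia induces, went from 386 (371 to 402) to 38.6 CPM (23.6 to 59.7). The angiopoietin receptor Tek had a log2 ratio of -2.15 (-2.41 to -1.90), Glp1r one of -1.59 (-1.92 to -1.28) and Sema3c one of -1.51 (-1.65 to -1.37). This was not so for every gene of the group. The sodium channel Scn7a stood at 1081 and 1188 CPM, the surface receptor Cd93 at 1046 and 1179 CPM, and Kit at 511 and 589 CPM. These 3 genes lay near their TNF- level while Cd36 and Adgrl3 did not, and of the 3 Scn7a was higher in aerocytes of both libraries.

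Genes that set vascular tone were lower as a group. Of 15 measured vasoactive genes none was higher and 9 were lower in TNF+ general capillary cells, with a median log2 ratio of -1.64 against 0.11 over all genes. Calcrl (ENSMUSG00000059588, chromosome 2, 84330626 to 84425411, minus strand), the receptor for adrenomedullin and CGRP, was the gene of this group with the highest level. It went from 3994 (3944 to 4044) to 928 CPM (846 to 1014), a log2 ratio of -2.11 (-2.24 to -1.98), and its partner Ramp2 from 1758 (1725 to 1792) to 557 CPM (494 to 625). Hpgd, which breaks down prostaglandins, went from 2319 (2281 to 2357) to 406 CPM (353 to 465). Ace, the angiotensin-converting enzyme, went from 875 to 276 CPM, and its log2 ratio was -1.66 (-1.91 to -1.42). The caveolar coat gene Cavin2 had a log2 ratio of -1.64 (-1.86 to -1.44) and the natriuretic peptide receptor Npr1 one of -1.77 (-2.40 to -1.20). The receptor that clears these peptides, Npr3, had 1575 UMIs in 498 TNF- cells and 2 UMIs in 2 TNF+ cells, a log2 ratio of -6.07 (-9.11 to -4.21). At 3000 UMIs per cell Npr3 had a UMI in 44.3% of TNF- cells and in 0 of 30 TNF+ cells, which allows a share of up to 10.0% of cells with a UMI (3 counts of the total, with an exact upper limit of 11.6%) and does not limit the share of cells that express the gene. The lower group thus spans receptors, enzymes and caveolar genes. Nos3, the nitric oxide synthase of endothelium, stood at 37.2 and 29.0 CPM and Edn1, the precursor of endothelin, at 318 and 247 CPM, both within 2-fold. Cav1, the main coat protein of caveolae, went from 1279 to 645 CPM, a log2 ratio of -0.99 that passed 2-fold in 9 of 16 alternative settings, among them the one without mixed barcodes (-1.33). In aerocytes none of 15 such genes was higher and 10 were lower, and in the synovium 4 of 17 were higher and 3 lower.

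BMP signalling keeps the pulmonary endothelium quiescent, and its receptor gene Bmpr2 is the gene most often mutated in heritable pulmonary hypertension. Of 18 measured genes of this pathway and of inherited pulmonary hypertension, 2 were higher and 7 lower in TNF+ general capillary cells, with a median log2 ratio of -0.38. Bmpr2 (ENSMUSG00000067336, chromosome 1, 59763400 to 59879014, plus strand) went from 2038 (2002 to 2074) to 630 CPM (563 to 702), a log2 ratio of -1.69 (-1.86 to -1.54). The receptors that act with it were lower too, Acvrl1 with a log2 ratio of -1.74 (-1.98 to -1.51) and Eng with one of -1.17 (-1.36 to -0.99). The inhibitor Smad6 went from 687 to 83.1 CPM, and its log2 ratio was -3.05 (-3.52 to -2.61). The water channel Aqp1 had a log2 ratio of -1.29 (-1.51 to -1.09) and the BMP target Id2 one of -1.64 (120 to 38.6 CPM), while Smad7 lay at the 2-fold limit with 453 and 226 CPM. These receptors and the inhibitory Smads were thus lower, but the ligand Bmp6 and the targets Id1 and Id3 were not. With the rule on counts thinned to 500 UMIs Eng was within 2-fold at -0.83. Another BMP ligand outside this list, Bmp2, had few UMIs and a log2 ratio of 5.55. Bmp6, a BMP ligand made by endothelium, stood at 1401 and 939 CPM, Id1 at 348 and 307 CPM, and Id3 at 692 and 852 CPM. The higher genes were the signal transducer Smad1, with a log2 ratio of 1.06 (0.74 to 1.37), and the ion pump Atp13a3, with one of 1.76 (1.38 to 2.13), of whose TNF+ UMIs 73.1% lay in 1 cell. In aerocytes 2 of 19 genes of this list were higher and 5 lower, with a median of -0.43. In the synovium none of 18 was higher and 3 were lower.

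Tumour necrosis factor acts on endothelium through NF-kB, which switches on its own inhibitors, chemokines and adhesion molecules. Of 22 measured genes of this response, 14 were higher and 1 was lower in TNF+ general capillary cells, with a median log2 ratio of 1.40. When the rule itself was applied to counts thinned to 500 UMIs, which chose 20 TNF+ barcodes, 6 of 17 genes were higher and 2 lower, with a median of 0.67. Among the inhibitors, Nfkbia, which holds NF-kB in the cytoplasm, went from 324 (310 to 338) to 667 CPM (598 to 741), a log2 ratio of 1.04 (0.87 to 1.21), and from 58.6% to 86.7% of cells at 3000 UMIs. Without mixed barcodes its ratio was 0.95 and no longer past 2-fold. Nfkbie, a related inhibitor, went from 3.13 (1.88 to 4.88) to 54.1 CPM (35.95 to 78.2), from 28 UMIs in 15 of 41 TNF+ cells. Tnfaip3, which edits ubiquitin chains to end the signal, had a log2 ratio of 2.75 (2.20 to 3.27), and its partner Tnip1 one of 2.75 (2.38 to 3.11) at 195 CPM. The NF-kB subunit Relb went from 29.9 to 139 CPM, and Nfkb2 reached 56.0 CPM in TNF+ cells with a lower interval limit of 1.34 for its log2 ratio, while Nfkb1 and Rela lay within 2-fold at 0.47 and 0.67. Feedback inhibitors and subunits of the alternative pathway were thus among the higher genes. The receptor gene Tnfrsf1a was the exception, going from 191 to 83.1 CPM, and its log2 ratio was -1.20 (-1.68 to -0.76). The chemokine Cxcl1 had 1 UMI in the TNF- and 21 UMIs in the TNF+ cells, a log2 ratio of 7.95 (5.31 to 13.3), but 76.2% of the latter lay in 1 cell. Aerocytes showed 15 of 23 genes of this list higher and none lower, and the synovium 9 of 29 higher and 1 lower.

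The promoters of 3 inhibitor genes of this group are shown since inhibitors of NF-kB are themselves known NF-kB targets. Each stretch is the 250 bases before a RefSeq start on build GRCm38.p6, read in the direction of the gene. Capitals mark matches to the NF-kB consensus found on either strand. Where a gene had more than 1 start, the one with the most matches was taken, for the stretches and for the counts below. The stretches lie at chr12:55492648-55492897 (minus strand) for Nfkbia, chr17:45555450-45555699 (plus strand) for Nfkbie and chr11:54962941-54963190 (minus strand) for Tnip1, where 3 overlapping matches form 1 run.
Nfkbia: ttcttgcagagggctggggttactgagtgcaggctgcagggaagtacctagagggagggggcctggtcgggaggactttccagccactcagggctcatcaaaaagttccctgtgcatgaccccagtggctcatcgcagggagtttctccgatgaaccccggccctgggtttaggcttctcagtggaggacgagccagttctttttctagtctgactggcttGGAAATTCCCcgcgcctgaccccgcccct
Nfkbie: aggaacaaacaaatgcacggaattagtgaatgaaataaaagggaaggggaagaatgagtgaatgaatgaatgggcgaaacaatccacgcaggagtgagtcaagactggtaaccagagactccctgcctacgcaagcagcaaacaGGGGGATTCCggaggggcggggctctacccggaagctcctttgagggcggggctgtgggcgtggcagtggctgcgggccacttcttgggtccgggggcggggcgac
Tnip1: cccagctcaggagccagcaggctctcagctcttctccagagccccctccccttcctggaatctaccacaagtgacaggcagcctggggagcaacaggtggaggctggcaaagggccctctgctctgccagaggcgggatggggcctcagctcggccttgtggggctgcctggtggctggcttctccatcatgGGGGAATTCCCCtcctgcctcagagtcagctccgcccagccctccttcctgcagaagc
The first match began 29 bases before the start for Nfkbia, 106 for Nfkbie and 58 for Tnip1. Of 27025 symbols with a promoter in the table, 1204 (4.46%) held at least 1 match in these 250 bases, and so did 348 of 5897 genes measured here (5.90%). In the TNF and NF-kB list 12 of 24 genes with a promoter held one, a list that contains known targets by its making. Of the leukocyte adhesion list 1 of 10 did, and of the matrix list 0 of 8. Of the 11 higher genes of the NF-kB list with a promoter 7 held a match, while Bcl3, Birc3, Icam1 and Tnfaip2 held none. A match describes letters in this window and is not a measured site.

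Adhesion molecules let leukocytes leave the capillary. Of 13 measured genes of this kind 6 were higher and 1 lower in TNF+ general capillary cells, with a median log2 ratio of 0.66. With the rule on counts thinned to 500 UMIs, 2 of 10 were higher and 2 lower, with a median of 0.11, and Icam1 and F11r were within 2-fold at 0.67 and 0.63. Vcam1 (ENSMUSG00000027962, chromosome 3, 116109949 to 116129688, minus strand), which binds integrins of lymphocytes and monocytes, went from 6.58 (4.70 to 8.96) to 344 CPM (295 to 398), a log2 ratio of 5.71 (5.21 to 6.24), or 52.3-fold. The size of this ratio moved with the choice of cells, from 2.78 with the rule on thinned counts to 7.21 without mixed barcodes and 7.22 with Car4 and Ednrb at 0, and it was past 2-fold in all 15 alternatives with a value. It had UMIs in 18 of 901 TNF- and 18 of 41 TNF+ cells, and at 3000 UMIs per cell in 1.23% (0.534 to 2.42) and 26.7% (12.3 to 45.9). Vcam1 was thus carried by many TNF+ cells and by few TNF- cells. In T cells thinned likewise it had a UMI in 0.610% of TNF- and 0.435% of TNF+ cells. Its counterpart Icam1 went from 108 (99.7 to 116) to 319 CPM (272 to 371), and the sialomucin Cd34 from 126 (117 to 135) to 661 CPM (593 to 735). Cd34 had a UMI in 25.3% of TNF- and 80.0% of TNF+ cells at 3000 UMIs. The junctional molecules Jam3 and F11r had log2 ratios of 1.87 (1.15 to 2.55) and 1.20 (0.97 to 1.42). Selp, the selectin of activated endothelium, went from 2 to 29 UMIs, of which 93.1% lay in 1 cell. Podxl, a sialomucin like Cd34, was lower at -1.30 (-1.58 to -1.03), and Icam2 stood at 527 and 288 CPM (log2 ratio -0.87, unmixed just past 2-fold). The higher adhesion genes thus did not include every sialomucin or every intercellular adhesion molecule. Sele, Madcam1 and Ackr1, genes of venules and activated endothelium, had at most 1 UMI in general capillary cells of either library. In aerocytes Vcam1 went from 22.6 to 197 CPM, and 5 of 14 adhesion genes were higher and none lower. In the synovium 3 of 13 were higher and 2 lower.

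The basement membrane anchors endothelium to the alveolar wall. Of 12 measured genes of the basement membrane and vascular matrix, 8 were higher and none was lower in TNF+ general capillary cells, with a median log2 ratio of 1.88. Over the 16 alternative settings no gene of the group was lower, and between 3 and 9 were higher. Col4a1 (ENSMUSG00000031502, chromosome 8, 11198423 to 11312826, minus strand) and Col4a2, head to head beside it, encode the chains of the main network collagen. Col4a1 went from 601 (581 to 621) to 2715 CPM (2575 to 2861), a log2 ratio of 2.18 (2.09 to 2.27), and Col4a2 from 394 (378 to 410) to 1550 CPM (1444 to 1661). At 3000 UMIs per cell both had a UMI in 100% of 30 TNF+ cells, against 80.1% and 65.4% of TNF- cells. The rise was therefore spread over the TNF+ cells rather than held by a few. Hspg2, which encodes perlecan, went from 10.0 (7.68 to 12.9) to 394 CPM (342 to 452), a log2 ratio of 5.30 (4.88 to 5.73), with UMIs in 28 of 901 and 28 of 41 cells. The laminin chains Lama4 and Lamc1 had log2 ratios of 2.65 (2.39 to 2.90) and 2.16 (1.86 to 2.46), and the collagen-binding Sparc one of 1.78 (1.68 to 1.87). For Col15a1 48.9% of the TNF+ UMIs lay in 1 cell. Nid1, which links laminin to collagen, stood at 81.3 and 124 CPM and the protease inhibitor Timp3 at 199 and 195 CPM. In aerocytes 8 of 13 genes were higher and none lower, and in the synovium 1 of 14 was higher.

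**Figure D4:**
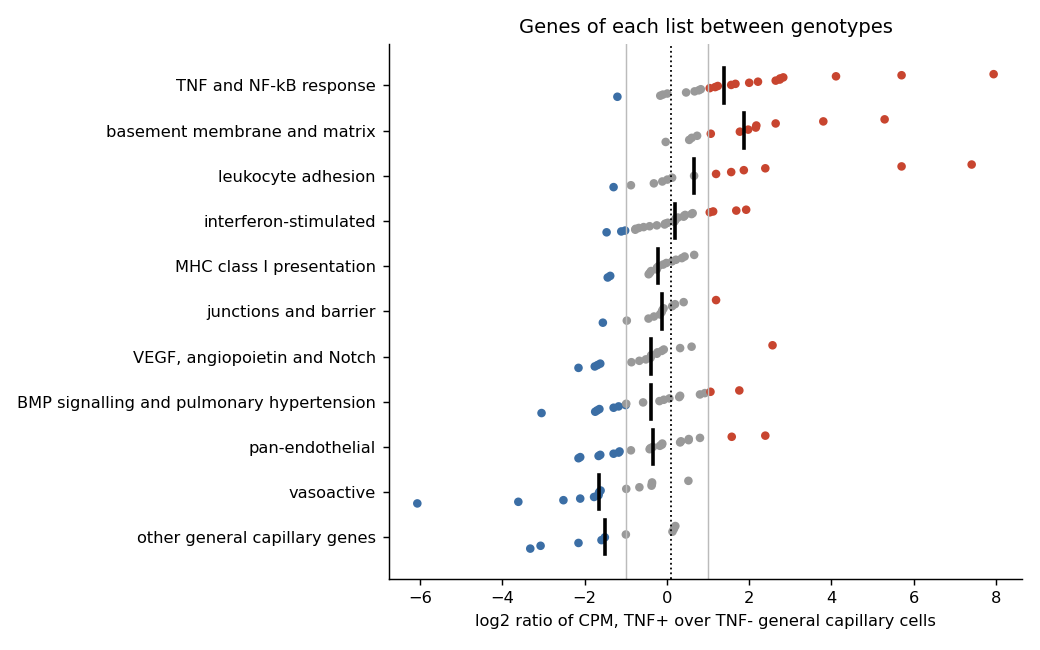
Log2 ratio of CPM in TNF+ over TNF- general capillary cells for the measured genes of 11 lists, 1 point per gene. Grey vertical lines mark 2-fold, the dotted line the median of all 7355 genes (0.11) and black bars the list medians. Matrix and NF-kB genes lie mostly to the right (medians 1.88 and 1.40), vasoactive and other general capillary genes mostly to the left (-1.64 and -1.51).

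Growth factor receptors of endothelium were mixed. Of 17 VEGF, angiopoietin and Notch genes 1 was higher and 4 were lower, with a median log2 ratio of -0.39. Besides Tek, the VEGF receptor Flt1 went from 1009 to 329 CPM, and its log2 ratio was -1.62 (-1.85 to -1.40), and the Notch target Hey1 had one of -1.69 (-2.31 to -1.13). Nrp2, a co-receptor for VEGF and semaphorins, was the higher gene, from 43.6 (38.5 to 49.2) to 259 CPM (217 to 307), with UMIs in 38 of 901 TNF- and 26 of 41 TNF+ cells. Without mixed barcodes its TNF- level was 7.03 CPM, so that its log2 ratio of 2.57 became 5.30. The main signalling receptor Kdr, counted among aerocyte markers, stood at 286 and 357 CPM. Vegfa stood at 398 and 303 CPM, and its ratio passed 2-fold only without mixed barcodes (-0.39 against -1.33), since 45.2% of its TNF+ UMIs lay in 1 barcode.

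Transcription factors of lung endothelium mostly lay within 2-fold. Of 16 measured, 2 were higher and 3 lower, with a median log2 ratio of -0.21. Epas1, the hypoxia-inducible factor of endothelium, went from 2953 (2910 to 2996) to 1078 CPM (991 to 1172), and Gata2 had a log2 ratio of -1.74 (-2.21 to -1.30). Gata6 had one of 2.03 (1.63 to 2.41), and Tcf15, which drives fatty acid transport genes in heart and muscle capillaries, had 7 UMIs in TNF- and 20 in TNF+ cells. Factors of general endothelial identity were near their TNF- level, with Erg at 365 and 336 CPM, Nfib at 1223 and 1130 CPM and Ets1 at 527 and 530 CPM. Foxf1, a factor of lung capillaries, stood at 385 and 242 CPM, a log2 ratio of -0.67. Among 21 pan-endothelial genes 2 were higher and 7 lower, the higher ones being Cd34 and the surface sialomucin Emcn (293 to 873 CPM).

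Genes of fat handling were mostly near the limit of measurement, with 7 of 19 measured. Lpl, the lipase that Gpihbp1 holds at the vessel wall, went from 150 (141 to 161) to 15.5 CPM (6.67 to 30.5), a log2 ratio of -3.28 (-4.50 to -2.30). With Cd36 it made up the 2 lower genes of this group, and Tcf15 was the higher one. The lipoprotein receptor Scarb1 stood at 168 and 101 CPM, and the fatty acid binding protein Fabp5 at 79.0 and 81.2 CPM, with an unmixed log2 ratio of 1.78 against 0.04.

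Antigen presentation genes differed little. Of 15 genes of MHC class I presentation none was higher and 2 were lower, with B2m at 1726 and 2328 CPM and H2-K1 at 1688 and 1845 CPM. Of 7 class II genes none was higher and 1 was lower, the regulator Ciita, with a log2 ratio of -1.75 (-2.89 to -0.81). The invariant chain Cd74 went from 1273 to 2033 CPM, and its log2 ratio of 0.68 lay within 2-fold. Interferon-stimulated genes split, with 4 of 27 higher, 3 lower and a median of 0.19. Isg15 had a log2 ratio of 1.93 (1.63 to 2.22) and Ifi44 one of 1.69 (1.18 to 2.17), while Iigp1, a GTPase, had one of -1.46 (-1.99 to -0.99). With the rule on counts thinned to 500 UMIs none of 23 was higher and 6 were lower, with a median of -0.22, and Isg15 and Ifi44 were at 0.81 and 0.28. Ifitm3 was even at 1563 and 1586 CPM. The antigen presentation and interferon groups thus lay close to the median of all genes, unlike the NF-kB group.

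The balance of clotting genes included moves in both directions. Of 7 measured genes 2 were higher and 2 lower. Thrombomodulin (Thbd), which turns thrombin towards anticoagulation, went from 722 (701 to 744) to 211 CPM (173 to 254), and Entpd1, which breaks down ATP and ADP, from 230 to 27.1 CPM. Plat, the tissue plasminogen activator, was among the higher genes and went from 46.6 to 131 CPM. Complement genes, the subject of the study, were mostly under the count minimum in general capillary cells, with 3 of 15 measured and none past 2-fold. This minimum depends on the small TNF+ sum of 41 cells as well as on the level of a gene. C3 stood at 18.9 CPM (15.6 to 22.7) in TNF- and 23.2 CPM in TNF+ cells, from 12 UMIs in the latter. Its log2 ratio was 0.29 (-0.70 to 1.15), and without mixed barcodes it fell under the count minimum. In aerocytes, whose TNF+ sum was larger, 10 of the 15 complement genes were measured, 5 of them higher and 2 lower. In the synovium 11 were measured, 1 higher and 7 lower.

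Several smaller groups completed the lists. Of 14 immediate-early genes 4 were higher and 1 lower, with Junb at 1.48 (1.23 to 1.73) and the shear-responsive factor Klf4 at -1.36 (-1.75 to -0.99) on the log2 scale. With the rule on counts thinned to 500 UMIs none of 12 was higher and 3 were lower, with a median of -0.32, and Junb was at 0.78. Klf2, the other shear-responsive factor, stood at 618 and 338 CPM, a log2 ratio of -0.87 (unmixed -1.02). Of 8 heat shock genes 2 were higher, among them Hsp90ab1 (925 to 2077 CPM), and of 4 genes of the integrated and ER stress response none was past 2-fold. Of 11 glycolysis and hypoxia genes 1 was higher, Eno1. Of 12 junction and barrier genes 1 was higher and 1 lower, with Tjp1 at 604 and 572 CPM. Of 5 measured cell cycle genes 4 were higher, among them Hmgb2 (81.3 to 220 CPM) and Pcna (41.3 to 83.1 CPM). With the rule on thinned counts 12 of 12 were higher, with a median log2 ratio of 5.39, a value that rested on 20 TNF+ cells, and with ratios centred on the median of all genes 2 of 5 were. Mki67 had 7 UMIs in 2 TNF+ cells, 85.7% of them in 1 cell, so with the rule on unthinned counts this proliferation marker was found in just 2 cells.

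Aerocyte genes in general capillary cells gave a gap between genotypes in 1 gene above all. Igfbp7 (ENSMUSG00000036256, chromosome 5, 77349240 to 77408041, minus strand), a secreted binding protein of the vessel wall, went from 198 (187 to 210) to 3544 CPM (3383 to 3710), a log2 ratio of 4.16 (4.06 to 4.27). In TNF- lung it set aerocytes (2085 CPM) apart from general capillary cells, while in the TNF+ lung general capillary cells reached the aerocyte level (3262 CPM). At 3000 UMIs it had a UMI in 25.9% (22.6 to 29.5) of TNF- cells, against 83.3% (65.3 to 94.4) of TNF+ general capillary cells, and in 5.65% of TNF+ T cells. Other aerocyte genes did not follow. Emp2 had 84 UMIs in TNF+ cells, of which 97.6% lay in 1 barcode, and its unmixed log2 ratio was -5.45 against -0.39. Apln had 34 UMIs in 3 TNF+ cells, 85.3% of them in 1, and the aerocyte gene Prx had a log2 ratio of -1.10 (-1.60 to -0.64). Of the large-vessel genes, besides Vcam1 and Selp, Mgp went from 337 to 19.3 CPM, with 28.9% of its TNF- UMIs in 1 barcode. Without mixed barcodes it went from 66.4 to 14.8 CPM, a log2 ratio of -2.16 against -4.12, and with Car4 and Ednrb at 0 the ratio was -1.50.

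The 12 largest ratios upward, among genes with at least 2-fold higher CPM in these cells than in their whole library, were led by Cxcl1 and Selp, which 1 cell decided. The next was Far2, a fatty acyl-CoA reductase, with 7 UMIs in 7 TNF- cells and 94 UMIs in 23 TNF+ cells, a log2 ratio of 7.30 (6.20 to 8.65). Prnd (ENSMUSG00000027338, chromosome 2, 131950861 to 131956130, plus strand), which encodes the prion-like protein doppel, had 30 UMIs in 3 TNF- cells and 323 UMIs in 26 TNF+ cells. Its log2 ratio was 6.98 (6.44 to 7.57), and at 3000 UMIs it had a UMI in 0.463% (0.0956 to 1.35) of TNF- cells, against 63.3% (43.9 to 80.1) of TNF+ cells. Prnd was therefore near absent from TNF- general capillary cells and present in most deeper TNF+ cells, and no thinned T cell of either library had a UMI of it. The ubiquitin-like gene Ubd had 0 UMIs in TNF- and 24 UMIs in 12 TNF+ cells, at least 93.9-fold higher against a floor of 3 UMIs over the TNF- cells. The calcium channel Ryr2 (14 and 141 UMIs), the membrane adaptor Efr3b (10 and 95), the G-protein regulator Rgs16 (5 and 35) and the ligand Bmp2 (5 and 20) had log2 ratios from 5.55 to 6.89. Without mixed barcodes Bmp2 fell under the count minimum. Igfbp2 also reached this list, but its 59 TNF+ UMIs all lay in 1 barcode. Vcam1 and Hspg2 completed the 12. In aerocytes Prnd, Far2 and Ubd had log2 ratios of 8.76, 7.25 and 8.88.

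The 12 largest ratios downward included Npr3 and Cd36. Lyve1, a hyaluronan receptor that lymphatic vessels and lung capillaries express, had 1718 UMIs in 438 TNF- cells and 0 UMIs in 41 TNF+ cells, at least 48.8-fold lower against a floor of 3 UMIs. It was lower in TNF+ aerocytes as well, at -3.05, and higher in the synovium, at 2.57. Kank4, a cytoskeletal adaptor, had 485 UMIs in 262 TNF- cells and 0 in TNF+ cells, at least 13.8-fold lower. Slc16a9, a transporter, went from 1333 UMIs in 454 cells to 5 in 4 cells, and Stmn2, a regulator of microtubules, from 1553 UMIs in 502 cells to 8 in 6 cells. Lrrc32, which displays latent TGF-beta, went from 505 to 2 UMIs, a log2 ratio of -4.43 (-7.48 to -2.57). The transcription factor gene Zfp641 and the transport adaptor gene Myrip had log2 ratios of -4.03 (-6.31 to -2.48) and -4.01 (-7.06 to -2.15). Each of these genes was spread over more than 200 TNF- cells and kept its direction without mixed barcodes. The remaining 3, the lymphatic chemokine Ccl21a and the club cell genes Cyp2f2 and Scgb3a2, lay in 33, 22 and 17 TNF- barcodes and gave no ratio once mixed barcodes were left out.

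**Figure D5:**
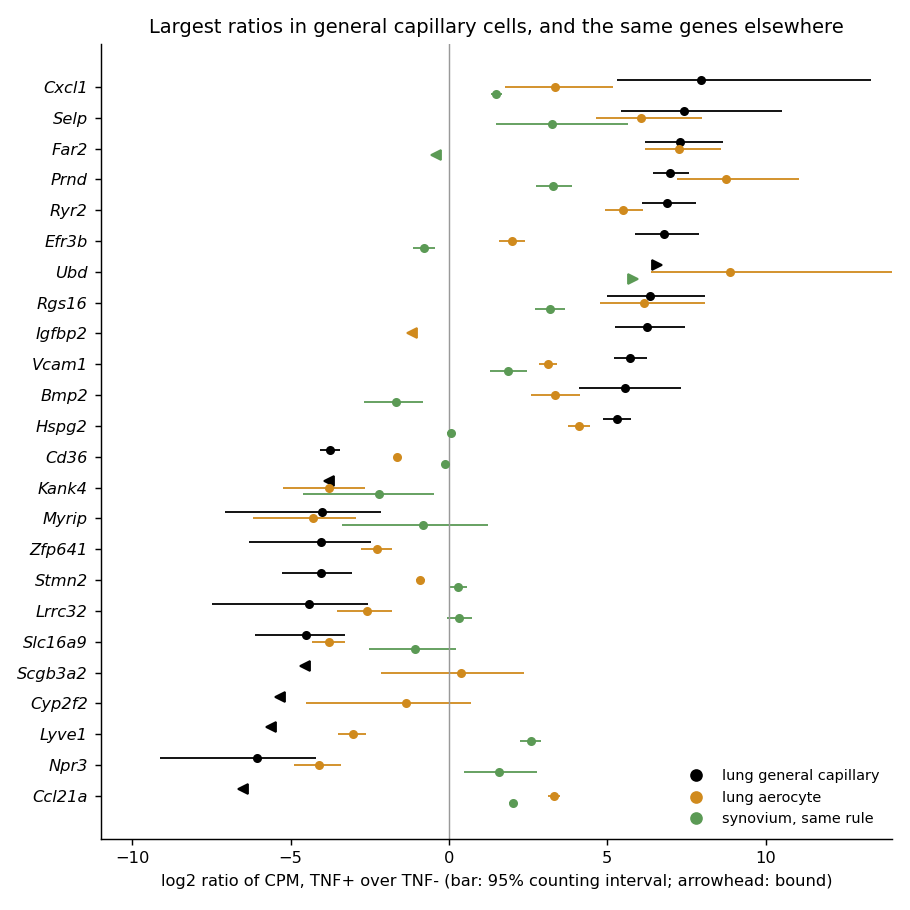
Log2 ratio of CPM, TNF+ over TNF-, for the 12 highest and 12 lowest genes of general capillary cells (black), with the same genes in lung aerocytes (orange) and in synovial barcodes that met the same rule (green). Bars are 95% counting intervals and arrowheads are bounds from a floor of 3 UMIs. Prnd, Far2 and Ubd are high in both capillary types, while Lyve1 and Npr3 are low in both and go the other way in the synovium.

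Within the TNF- lung, general capillary cells were set against the other endothelium with at least 3000 UMIs and no mixed barcode (617 general capillary cells, 415 aerocytes and 446 large-vessel cells), since club cell genes from mixed barcodes led the ratios of all barcodes. Over aerocytes the highest gene was Esm1, a proteoglycan of sprouting endothelium, at 98.3 and 11.6 CPM, a log2 ratio of 3.08 (2.71 to 3.48). Next came the protocadherin Pcdh7 at 1.35 (1.09 to 1.62) and Edn1 at 1.34 (1.22 to 1.46), followed by Mctp1, Setbp1, Ntrk2 and Ivns1abp at 1.33 to 1.20, the chemokine Cxcl12 at 1.18 (1.08 to 1.27) and Vegfa at 1.16 (1.05 to 1.26). In the TNF+ lung, Esm1 kept a log2 ratio over aerocytes of 4.59 (3.71 to 5.59) and Edn1 one of 1.41 (1.06 to 1.76). Cxcl12 was at -0.24 (-0.41 to -0.08), Vegfa at 0.16 (-0.22 to 0.52) and Pcdh7 at -1.63 (-4.77 to 0.41). These TNF+ values rest on 28 general capillary cells and 73 aerocytes, so a few cells can set them. Edn1 and Esm1 were thus higher in general capillary cells than in aerocytes of both libraries, and Cxcl12 in the TNF- library. The lowest genes against aerocytes were the G-protein regulator Rgs6 at -7.60 (-8.41 to -6.90), the phosphodiesterase Pde8b and Fibin. Over the large-vessel gate the highest were the factor Glis3 at 1.31 (1.09 to 1.53) and Scn7a at 1.15 (1.08 to 1.21). The lowest were the noradrenaline transporter Slc6a2 at -10.4 (-15.7 to -7.87), the secreted Cytl1 and Vcam1 at -6.26 (-7.32 to -5.37). This gate still carried Cd36 at 2017, Plvap at 1383 and Adgrl3 at 2127 CPM, against 2519, 1209 and 2784 CPM in general capillary cells. Its ratios are therefore not read as a contrast with large vessels alone. The lowest ratios of general capillary cells against either gate were thus larger in size than the highest.

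General capillary cells of the TNF- lung also varied among themselves. In 741 cells thinned to 2000 UMIs, the variance of a gene's UMIs over cells was divided by its mean, with a median of 1.09 over 6106 genes. The 10 most variable genes were all genes of other cells, from Scgb1a1 (993) and Hba-a1 (366) to Acta2 (29.2). Scgb1a1, a secretoglobin of club cells, dropped to 1.41 once mixed barcodes were left out (709 cells), while the haemoglobin genes did not change. Among genes of the endothelium, Esm1 stood at 6.76 in unmixed cells, with a UMI in 5.92% of them. The aerocyte gene Emp2 stood at 6.20, with a UMI in 17.2% of them. Adgrl3 stood at 4.96, Sema3c at 4.18 and Calcrl at 3.75, each found in more than 88% of cells. Their means were high, at 5.46, 5.79 and 9.52 UMIs, and the measure can rise with the mean. The median over all genes is therefore not a like standard for them. Esm1 was thus held by few general capillary cells at high level, and Adgrl3, Sema3c and Calcrl varied in level among cells that nearly all expressed them.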

How the data were processed

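Droplet single-cell RNA-seq of 4 libraries was used, of which the 2 lung libraries carry the results. The deposited values were UMI counts per gene and barcode (32285 genes), made by the authors with Cell Ranger 7.0.1 on mm10 per the submitters' processing notes. Intronic reads may be counted by that version, so overlapping genes can share reads. Barcodes with under 500 UMIs or over 20% mitochondrial UMIs were left out, and doublets were not removed, the highest Scrublet scores (0.8% per 1000 barcodes) being left out as an alternative. UMIs were summed per library and cell group. Genes with at least 10 expected UMIs in the smaller sum were measured, apart from rule and mitochondrial genes, and were called past 2-fold. Since each genotype was 1 library, no test was run. Intervals (95%) were exact Poisson for levels, Clopper-Pearson for shares and conditional binomial for ratios, and UMIs of 0 were set to a floor of 3 for bounds. Cells were thinned with seed 1 to 500, 2000 or 3000 UMIs, with shallower cells left out.

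The members and gene lists were chosen with earlier results of these data known. Named were, per list, up to 4 genes by level and 4 by change, the 12 highest and 12 lowest ratios, 10 genes per comparison with other endothelium and the 10 most variable. Other list members were named for their role after values were seen. Gene positions are from GENCODE on GRCm38 and promoters from RefSeq. Calculations used Python 3.11.15, NumPy 2.4.6, SciPy 1.17.1, pandas 2.3.3, Scanpy 1.11.5 and Matplotlib 3.10.9 and were tested on simulated data. One gene is not reported here.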

Additional observations from a re-analysis of the deposited data

Results flagged for a closer look

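Some genes past 2-fold in lung general capillary cells were past 2-fold the other way in another group, with intervals for counting error on opposite sides of 0. With 1 library per genotype the differences between groups were not tested. Values are log2 ratios of TNF+ over TNF-.

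Against synovial barcodes that met the same rule, Plvap was at -1.56 in the lung and 1.55 in the synovium. Npr3 was at -6.07 and 1.59, Lyve1 at -5.61 (a bound) and 2.57, and Hilpda at -3.32 and 3.15. Bmp2 was at 5.55 and -1.69, the junction gene Jam3 at 1.87 and -1.04, and Zfp36, which destabilises cytokine mRNA, at 1.04 and -1.42. In the lung Bmp2 fell under the count minimum without mixed barcodes. The polarity gene Pard6g was at -1.05 and 2.63, and without mixed barcodes its lung ratio was -0.82. Ccl21a was at -6.51 (a bound) and 2.03, Mmrn1 at -3.72 (a bound) and 2.73, and Reln at -2.94 (a bound) and 2.60. These last 3 are genes of lymphatic vessels and gave no lung ratio once mixed barcodes were left out.

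Against lung aerocytes, Apln was at 3.73 in general capillary cells, with 85.3% of its TNF+ UMIs in 1 cell, and at -1.17 in aerocytes. Ccl21a was at -6.51 and 3.30, and Mmrn1 at -3.72 and 1.32, where both values of general capillary cells are bounds over 0 TNF+ UMIs and gave no ratio without mixed barcodes.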

How the results depend on the processing

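No paired analysis was possible because the labels give no replicate numbers and each group was 1 library, and for the same reason no replicate could be left out. Values rest on 41 TNF+ cells, and the intervals leave out variation between mice. Alternatives chosen after seeing the data were thinning to 3000 UMIs, cells of at least 8000 UMIs, and leaving out mixed barcodes.

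The TNF- share of 10.8% became 7.34% with the rule on counts thinned to 500 UMIs, 8.82% with at least 2 UMIs of Gpihbp1, 8.58% with Vwf at 0, 7.19% with Car4 and Ednrb at 0 and 12.5% with 200 to 5000 genes per cell. The TNF+ share of 0.370% became 0.180% with the rule on thinned counts, 0.207% with at least 2 UMIs of Gpihbp1 and 0.262% without mixed barcodes.

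The 619 higher and 527 lower genes became 33 and 60 with each cell thinned to 500 UMIs, 213 and 221 at 3000 UMIs, 948 and 817 with at least 5 expected UMIs, and 265 and 261 with at least 30, since the number of genes measured changed. Of 92 named genes past 2-fold, 91 kept their direction in each of the 16 alternatives that gave them a value, and 69 stayed past 2-fold in all of these. The exception was Ier3, at 1.04, which was at -0.097 with the rule on thinned counts, and the cause was not tested. Without mixed barcodes Ier3 was at 0.96 and no longer past 2-fold.

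Shares of cells with a UMI rose with depth. Unthinned they were 45.4% (Aplnr), 85.3% (Plvap), 68.6% (Kitl) and 95.2% (Cd36) in TNF- cells and 65.9%, 56.1%, 65.9% and 41.5% in TNF+ cells. At 3000 UMIs they were 33.5%, 82.4%, 56.8% and 96.9% in TNF- cells, and 50% (Aplnr), 43.3% (Plvap) and 60.0% (Kitl) in TNF+ cells. With the rule on thinned counts Plvap was at 48.0% in TNF- and Kitl at 30% in TNF+ cells, and a second thinning gave 4.88% for Aplnr in TNF+ cells, which turned the direction between genotypes.

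Log2 ratios over aerocytes with each cell thinned to 500 UMIs were 1.06 (Aplnr) and 1.42 (Plvap) in the TNF- lung and 2.53 (Aplnr) and -2.73 (Kitl) in the TNF+ lung. In unmixed cells of at least 3000 UMIs they were 0.73 (Plvap) and -1.73 (Kitl) in the TNF- lung. With aerocytes of at least 5 UMIs of Car4 and Ednrb they were 0.82 (Plvap), -2.07 (Kitl) and -0.16 (Cd36) in the TNF- and 1.71 (Plvap) in the TNF+ lung. For Cd36 in the TNF- lung, at -0.13, the sign turned to 0.0022 when thinned and 0.0090 in unmixed cells of at least 3000 UMIs, and the cause was not tested.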
